A study of Arabidopsis thaliana and Zea mays with 36 samples.

Results

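Long circular RNAs (circRNAs) of maize that come from a gene with no other circRNA in the deposited list are described here over 4 levels of water supply. A circRNA was taken when its row named 1 host gene, when that gene stood in no other row, and when the genomic span from its start to its end was above 1000 bp. This left 384 of the 2174 maize circRNAs, or 41.6% of the 923 circRNAs whose host has only that one; the other 539 of these are called short below. The rule read the length and the host and no level. Every row was above 0 in at least 1 group, however, so which rows exist depends on these same libraries. Whether a host has only 1 row depends on them too. Of the 384, 89 were above 0 in the driest group (DT4) alone and 13 in well-watered leaves alone. The choice of members is thus not independent of the groups in which they are found.

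A circRNA forms by back-splicing, in which the spliceosome joins the end of an exon to the start of the same or an earlier exon. The closed ring has no free end, so the exonuclease RNase R, which degrades linear RNA, leaves it. The reads that identify it cross this back-splice junction, and a genomic span above 1000 bp usually holds introns that the ring itself may or may not keep. Most back-spliced genes also make the linear mRNA, and a circle of exons uses exons of a precursor that could have given an mRNA.

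Leaves came from the inbred line B73, the third leaves at the V4 stage, pooled from at least 2 plants per sample, per the labels. Plants in pots in a greenhouse were well watered (WW) or held from day 16 after planting at drought level DT2, DT3 or DT4, numbered as in the labels; the sources used here do not give their soil moisture. Each of these 4 groups had 2 biological replicates with RNase R digestion (8 circRNA libraries) and 2 without (8 linear libraries), and the same RNA samples served both assays, per the labels. All groups are of 1 line, 1 leaf and 1 stage, and in whole leaves a change in the number of cells of a type and a change in RNA per cell cannot be told apart. The tables name host genes by identifiers only, so no gene names or roles are given, and the leaf identity of the samples was not checked against marker genes.

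The circRNA value is a signal that the authors scaled per library. Every value was a whole multiple of 1 step of its library (12.9 to 14.8 signal units), the same step for spans of 1001 and of 24529 bp, so levels carry no division by length. The smallest nonzero value was 2 steps. The libraries summed to 15885 and 15260 steps in WW, 18803 and 17346 in DT2, 18122 and 19653 in DT3, and 23926 and 22219 in DT4. Zeros always came in both libraries of a group together, so a 0 is read as not listed, not as absence. A circRNA is called listed in a group where both libraries are above 0.

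The spans of the 384 long circRNAs ran from 1001 to 24529 bp, with quartiles at 1298, 1793 and 2538.5 bp; 160 were above 2000 bp, 31 above 5000 bp and 13 above 10000 bp. The authors' table classed 373 as exonic and 11 as intronic. They lay on all 10 chromosomes, most on chromosome 1 with 63 and fewest on chromosome 8 with 22, and 201 were on the plus strand and 183 on the minus strand. Of their hosts, 122 (31.8%) had 1 annotated transcript in the linear table, against 33.0% of the hosts of short circRNAs. Coordinates are those of the table, on B73 RefGen_v3 per the submitters' processing notes. The longest was GRMZM2G151237_C1 on chromosome 5, from 211962929 to 211987458 on the plus strand (24529 bp). It was listed in every group at a low level, 111 and 28.0 in WW, 103 and 44.1 in DT2, 88.6 and 54.2 in DT3, and 125 and 64.5 in DT4. The replicates of each group differed more than the group means did.

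Next in length came GRMZM2G005199_C1 (19026 bp), listed in all 4 groups between 41.7 and 133, then GRMZM2G095326_C1 (16967 bp), GRMZM2G155949_C1 (16920 bp) and GRMZM2G135256_C1 (16727 bp). The last of these and GRMZM2G095326_C1 were listed in the 3 drought levels and not in WW, and GRMZM2G155949_C1 in DT2 alone at 25.9 and 29.4. The 13 circRNAs above 10000 bp had group means of 26.8 to 200.01, and 5 of them were listed in all 4 groups. Their hosts averaged 4.17 to 53.7 TPM, the length-normalised unit of the linear table. On either side of the length limit stood GRMZM2G058310_C1 at 999 bp, listed in DT4 alone at 27.8 and 25.8, and GRMZM2G057778_C1 at 1001 bp, listed at 27.8 and 56.0 in WW, 90.6 and 88.2 in DT2, and 192 and 149 in DT3.

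More long circRNAs were listed in each drought level than in well-watered leaves. Of the 384, 145 (37.8%) were listed in WW, 206 (53.6%) in DT2, 201 (52.3%) in DT3 and 255 (66.4%) in DT4. Over all 2174 maize circRNAs the shares were 43.9% in WW, 55.2% in DT2, 56.3% in DT3 and 66.7% in DT4. The summed steps of the libraries above had the same order in their group means except that DT3 stood above DT2, and their part in the listing was not tested. With at least 5 steps required in both libraries, 65 were left in WW, 90 in DT2, 93 in DT3 and 122 in DT4.

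**Figure D1:**
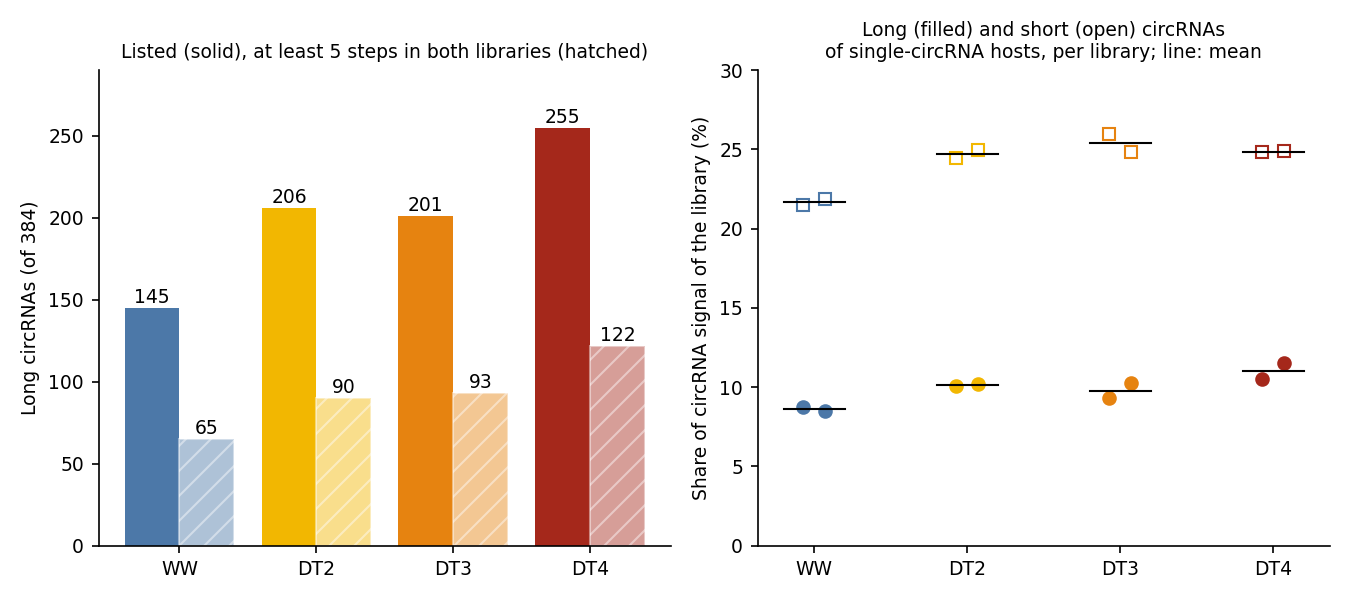
Left, the number of long circRNAs listed in each group (solid bars) and with at least 5 steps in both libraries (hatched bars), from well-watered leaves (WW) to drought level DT4; 145 were listed in WW and 255 in DT4. Right, the percentage of each library's summed circRNA signal in long (filled circles) and short (open squares) circRNAs of hosts with a single circRNA, 1 point per library and a line at the mean of 2; the 6 drought libraries lie above both WW libraries in both classes.

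Listing in a single group was the commonest pattern, with 170 circRNAs, against 72 in 2 groups, 75 in 3 groups and 67 in all 4 (17.4%, against 20.6% of all maize circRNAs). Among the 170, 89 were listed in DT4 alone, 35 in DT2 alone, 33 in DT3 alone and 13 in WW alone. Those listed in 1 group were low, with a median mean of 46.4 and a highest mean of 184, whereas the highest group mean of those listed in all 4 had a median of 176 and reached 1481. Host level differed little between these classes: the median over all libraries was 20.5 TPM for hosts of circRNAs listed in 1 group and 24.2 TPM for those listed in all 4.

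The highest circRNA of DT4 alone was GRMZM2G553532_C1 (chromosome 5, 217404305 to 217406064, plus strand), at 83.4 and 284 in its 2 libraries. GRMZM2G013936_C1 followed at 236 and 129, and GRMZM2G043530_C1 at 97.3 and 168. The host of GRMZM2G553532_C1 had 47.3 and 40.1 TPM in DT4, against 25.5 and 26.9 TPM in WW, and that of GRMZM2G043530_C1 had 9.52 and 10.8 TPM in DT4, against 10.7 and 8.36 TPM in WW. So the first host stood above its WW range and the last overlapped it. In WW alone the highest was GRMZM2G107654_C1 (chromosome 7, 158177472 to 158179325) at 139 and 84.0, in DT2 alone GRMZM2G005082_C1 at 64.7 and 88.2, and in DT3 alone GRMZM2G101926_C1 at 88.6 and 81.3. The host of GRMZM2G005082_C1 was lowest in DT4, with 16.9 and 13.3 TPM in WW, 12.4 and 18.0 in DT2, 5.68 and 14.6 in DT3, and 0.99 and 0.88 in DT4.

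Of the circRNAs listed in all drought levels and not in WW, 33 in number, the highest was GRMZM2G167243_C1 (chromosome 6, 147045736 to 147047773, minus strand). It read 155 and 73.5 in DT2, 207 and 136 in DT3, and 236 and 258 in DT4. GRMZM2G071491_C1 and GRMZM2G162175_C1 came next, with DT4 values of 195 and 232 and of 292 and 155.

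A 0 was also found beside high values. A group mean of 300 or more was reached by 28 long circRNAs, and 15 of these (53.6%) were listed at 0 in both libraries of another group, against 44.9% of the 265 circRNAs of the whole table that reached 300. GRMZM2G439049_C1 (chromosome 1, 10382276 to 10385941, plus strand, 3665 bp) read 1000 and 602 in WW, 1022 and 1146 in DT2, and 886 and 1369 in DT3, and was at 0 in DT4. Its host had 17.7 and 14.4 TPM in DT4, against 5.39 and 7.64 TPM in WW, so the linear RNA was higher where the circRNA was not listed. GRMZM2G111611_C1 (chromosome 3, 204542501 to 204545268) and GRMZM2G095323_C1 (chromosome 10, 37642253 to 37644656) showed the same pattern, with 448 to 893 and 476 to 1152 in the other 6 libraries. Their hosts had 73.4 and 59.2 TPM and 11.1 and 6.67 TPM in DT4, with 1 library of each below and 1 within the range of the other groups. The intronic GRMZM2G181081_C1 (chromosome 3, 229995999 to 230001090, 5091 bp) read 492 to 868 outside DT4 and 0 within it.

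In other members the 0 fell in another group. GRMZM2G372928_C1 (chromosome 8, 25389926 to 25391045) was at 0 in DT2 and at 502 to 959 elsewhere. GRMZM2G147026_C1, AC148167.6_FG001_C1 and GRMZM2G095865_C1 were at 0 in DT3 and at 350 to 787, 250.0 to 568 and 294 to 514 elsewhere. Zeros were taken as missing in the log2 changes of single circRNAs below.

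**Figure D2:**
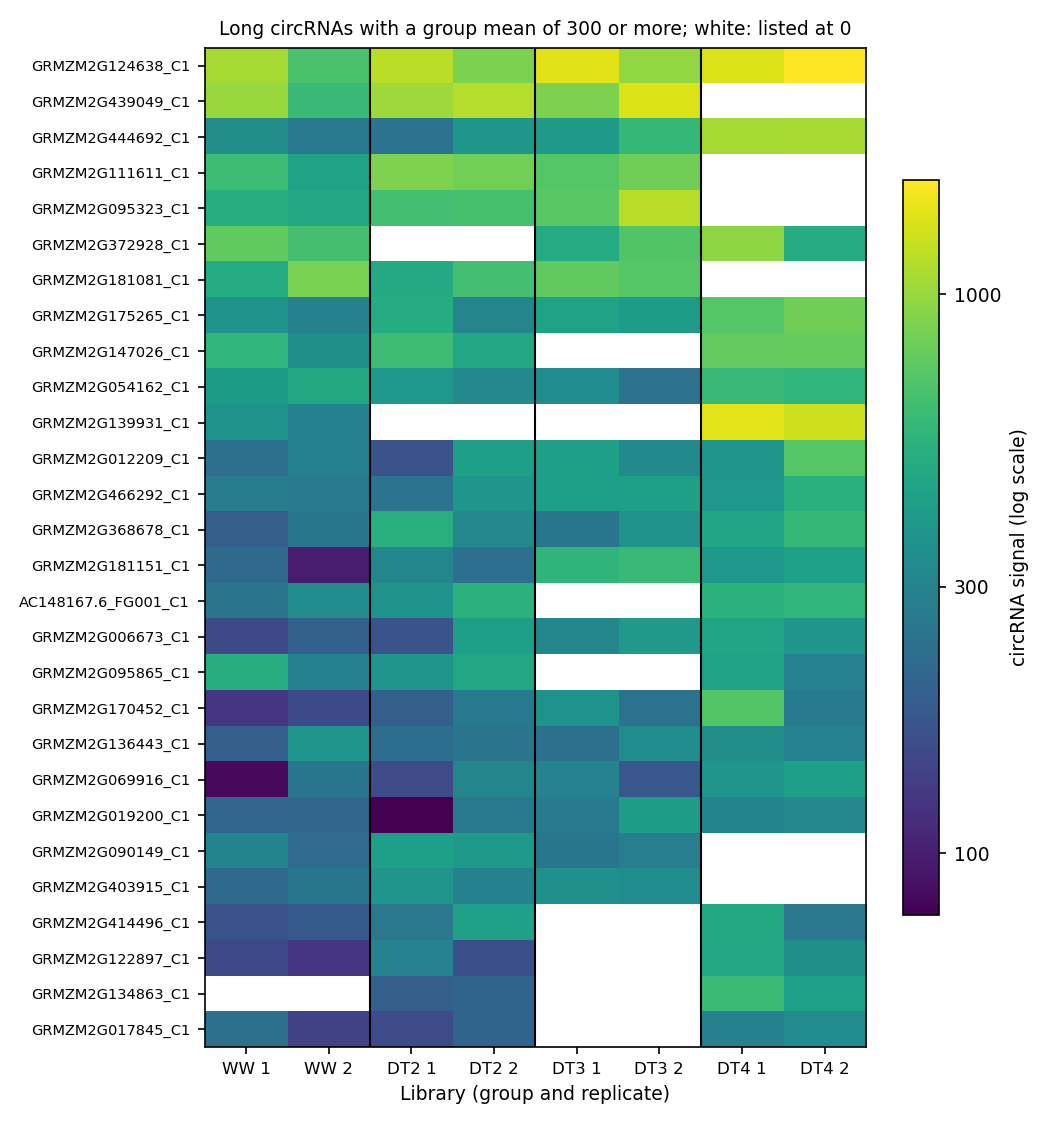
Signal of the 28 long circRNAs with a group mean of 300 or more (rows, in order of their mean over 8 libraries) in each library (columns, by group and replicate), coloured on a log scale; white cells are listed at 0. In 15 rows a whole group is white beside high values, 6 of them in DT4 and 8 in DT3.

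In 10 of the 384, 1 end of the span was also an end of a circRNA that the table gives as intergenic, with no host. In all, 11 long circRNAs overlapped 19 other rows, each of them intergenic and on the same strand. GRMZM2G553532_C1 and GRMZM2G167243_C1 are among the 10. GRMZM2G439049_C1 shares its start at 10382276 with 3 longer ones, ZmciR1 (14205 bp), ZmciR2 (27138 bp) and ZmciR3 (40359 bp). These were not listed in WW and were listed in DT4, where GRMZM2G439049_C1 was not, at 153 and 51.6, at 125 and 142, and at 55.6 and 38.7. They were also found where GRMZM2G439049_C1 was listed. ZmciR1 read 64.7 and 88.2 in DT2 and 73.8 and 217 in DT3. ZmciR2 read 44.3 and 108 in DT3, and ZmciR3 142 and 73.5 in DT2. GRMZM2G175265_C1 shares its start with ZmciR454 (6043 bp), listed in DT4 alone at 41.7 and 38.7. Where spans share an end, reads that reach only that end do not tell the circles apart, and the sources used here do not say how the authors assigned them.

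Long circRNAs together held a larger share of the circRNA signal in every drought library than in either WW library. The share averaged 8.60% ± 0.183 in WW, 10.1% ± 0.0774 in DT2, 9.79% ± 0.675 in DT3 and 11.0% ± 0.692 in DT4 (SD, n = 2 libraries each). The exact two-sided permutation test of the 6 drought against the 2 WW libraries gave p = 0.0714, the smallest that 6 against 2 can give. Of the 384, 239 were listed in drought levels only and count as 0 in WW. The rows thus depend on the groups compared, and the test cannot tell a higher share from this listing. Over the circRNAs listed in all 4 groups alone, the share was 6.82% in WW, 7.204% in DT2, 7.22% in DT3 and 8.34% in DT4. Short circRNAs of hosts with a single circRNA moved alike, with 21.7% in WW, 24.7% in DT2, 25.4% in DT3 and 24.8% in DT4, so a higher share in the drought libraries was also seen for short ones. The hosts' summed linear RNA was 14255 ± 27.4 TPM in WW, 14811 ± 757 in DT2, 14673 ± 188 in DT3 and 14785 ± 449 in DT4 (SD, n = 2 each). The 10 members with the highest mean over the 8 libraries held 30.2% of the members' signal in WW. They held 23.0% in DT2, 25.2% in DT3 and 16.0% in DT4. These shares count groups not listed as 0. That was so in DT4 for GRMZM2G439049_C1, GRMZM2G111611_C1, GRMZM2G095323_C1 and GRMZM2G181081_C1, in DT2 for GRMZM2G372928_C1 and in DT3 for GRMZM2G147026_C1.

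Over the members, Spearman's rho between group mean and length lay between -0.15 and -0.01, and between group mean and host TPM between -0.04 and 0.07, over the 145 to 255 listed members of a group that share 2 libraries. The 2 replicates of a group correlated at 0.61 to 0.69 over the same circRNAs. The median of the listed means was 76.7 in WW, 73.8 in DT2, 77.6 in DT3 and 79.4 in DT4, and over all circRNAs 97.4, 88.5, 97.3 and 87.9. These medians correspond to 5.5 to 6 steps, and the 2 replicates of a group differed more than 2-fold for 20.4% to 31.7% of the listed members. The signal per host TPM, a ratio of unlike scales used only to order members, had a median of 3.64 in WW and ran from 0.0488 for GRMZM2G026807_C1 to 217 for GRMZM2G372928_C1.

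A change against WW was tested with limma on the log2 signal for circRNAs listed in both groups, all libraries in one fit, with Benjamini-Hochberg adjustment over every circRNA tested. An adjusted p under 0.05 is called below. In DT2, 0 of 105 long circRNAs were called higher and 0 lower, beside 0.574% of all tested circRNAs called higher and 0% lower; 10 were higher and 0 lower at an unadjusted p under 0.05, beside 64 higher and 9 lower of the 697 tested. In DT3, 2 of 104 rose and 0 fell, beside 5.99% and 0.15% (6.14% in either direction). In DT4, 15 of 99 (15.2%) rose and 0 fell, beside 19.1% higher and 2.1% lower over all circRNAs (21.2% in either direction). The share of long circRNAs called higher was thus under that of the table in each level, a difference that was not tested.

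The whole table moved with the drought level, and so did its long members. Their median log2 change was 0.35 in DT2, 0.44 in DT3 and 0.72 in DT4, against 0.28, 0.46 and 0.60 over all circRNAs tested. Relative to that median, long circRNAs were at 0.08 in DT2, -0.03 in DT3 and 0.11 in DT4, with 57 above and 42 below it in DT4. Trimmed-mean rescaling of the libraries on the circRNAs listed in all groups removes this common shift. It left 1 call in DT3, a rise, beside 8 higher and 7 lower of the 668 circRNAs tested. In DT4 it gave 7 calls, beside 27 higher and 43 lower of the 666 tested. Of the 7, 3 were rises also called as deposited and 4 were falls that were not. Without WW replicate 2, DT4 replicate 1 or DT4 replicate 2, fewer were called in DT4, among long circRNAs and among all circRNAs. The median log2 change in DT4 was then 0.53, 0.80 and 0.68, beside 0.53, 0.47 and 0.70 over all circRNAs.

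Groups were also compared by their raw order. Both DT2 libraries lay above both WW libraries in 35 of 105 long circRNAs (31.4% of all circRNAs tested) and below in 10 (9.9%). In DT3 the counts were 41 above and 9 below of 104 (40% and 10.8%), and in DT4 47 above and 4 below of 99 (45.8% and 9.91%). Of the 67 listed in every group, the highest mean fell in WW for 3, in DT2 for 10, in DT3 for 16 and in DT4 for 38, or 4.48%, 14.9%, 23.9% and 56.7%, beside 8.28%, 17.0%, 26.4% and 48.3% of the 447 such circRNAs in the table.

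**Figure D3:**
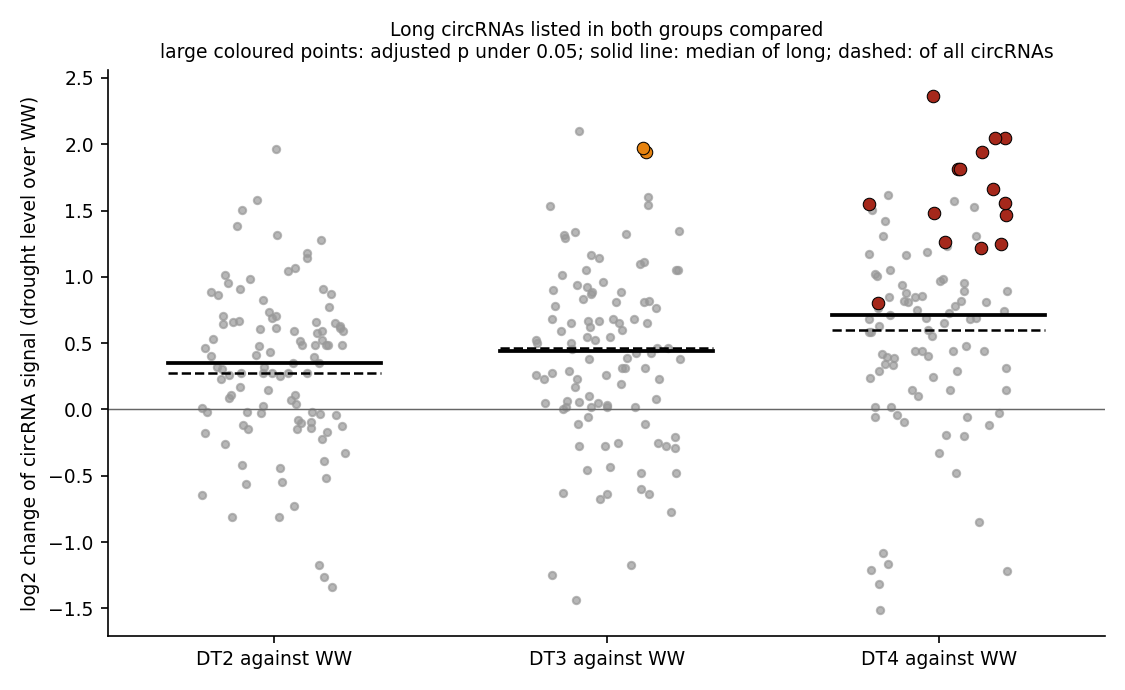
Log2 change of each long circRNA listed in both groups (points), for DT2, DT3 and DT4 over WW; large coloured points have an adjusted p under 0.05 (none in DT2, 2 in DT3, 15 in DT4). Solid lines mark the median of the long circRNAs and dashed lines that of all circRNAs tested; in DT4 they stand at 0.72 and 0.60.

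The rise with the smallest adjusted p was that of GRMZM2G139931_C1 (chromosome 7, 152217610 to 152218966, minus strand, 1356 bp). It read 1417 and 1278 in DT4 leaves, against 361 and 294 in WW leaves, and was at 0 in DT2 and DT3. The log2 change was 2.05 (SE 0.342, limma adjusted p = 2.00e-07), and 1.45 after rescaling (adjusted p = 0.000675). Its host rose too, with 36.6 and 42.0 TPM in DT4 against 10.8 and 9.75 TPM in WW (log2 change 1.84, SE 0.251, limma adjusted p = 0.000500).

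GRMZM2G444692_C1 (chromosome 1, 244146276 to 244148094, minus strand, 1818 bp) read 1070 and 1071 in DT4, against 347 and 266 in WW, with no overlap. That rise of 1.82 (SE 0.376, limma adjusted p = 6.13e-05) was also called after rescaling, at 1.22 (adjusted p = 0.0210). The host had 38.8 and 39.0 TPM in DT4, against 31.4 and 30.2 TPM in WW, a log2 change of 0.33 that did not pass (limma adjusted p = 0.0860).

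GRMZM5G893864_C1 (chromosome 5, 88233235 to 88234438, minus strand, 1203 bp) had the largest log2 change, 2.36 (SE 0.611, limma adjusted p = 0.00202). It read 320 and 194 in DT4, against 41.7 and 56.0 in WW; in WW this is 3 and 4 steps. It passed after rescaling (adjusted p = 0.0352) but not without DT4 replicate 1 or 2 (limma adjusted p = 0.130 and 0.0545).

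Only these 3 of the 15 DT4 calls were also calls after rescaling. GRMZM2G124638_C1 (chromosome 1, 189392069 to 189393168, 1099 bp), the member with the highest mean over all libraries, read 1362 and 1601 in DT4, against 1070 and 672 in WW. Its log2 change of 0.80 (limma adjusted p = 0.0431) was 0.20 above the median circRNA. GRMZM2G032336_C1 (log2 change 2.05) had 1 WW library at the minimum of 2 steps, and GRMZM2G077079_C1 (1.94) had both there. These 2 circRNAs lost their calls after rescaling (limma adjusted p = 0.152 and 0.228). The 15 called spans were 1010 to 2328 bp long with a median of 1284 bp, and in all 15 the DT4 libraries lay above the WW libraries.

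Of the other DT4 calls, GRMZM2G175265_C1 and GRMZM2G181151_C1 are described below, and the rest had log2 changes of 1.22 to 1.81. GRMZM2G368678_C1 (chromosome 6, 119865632 to 119867609) read 459 and 581 in DT4, against 194 and 252 in WW. GRMZM2G069916_C1 (chromosome 5, 1317691 to 1318775) read 375 and 426 in DT4, against 83.3 and 252 in WW, so its WW libraries differed more than 2-fold. GRMZM2G006673_C1, GRMZM2G075680_C1, GRMZM2G122897_C1 and GRMZM2G315127_C1 averaged 416 ± 59.5, 271 ± 109, 410 ± 87.6 and 199 ± 84.3 in DT4, against 174 ± 30.6, 90.6 ± 29.1, 139 ± 18.9 and 55.8 ± 20.0 in WW (SD, n = 2 each). Each of these lost its call after rescaling, with limma adjusted p of 0.211 to 0.397.

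Intronic members were few and mostly low. Of the 11, 8 were listed in a single group, 5 of them in DT4 and 3 in DT2, with values of 25.8 to 155. GRMZM2G170452_C1 (chromosome 2, 135472749 to 135474033, minus strand, 1284 bp) was the intronic member listed in all 4 groups, and 1 of the 15 DT4 calls. It read 709 and 271 in DT4, against 125 and 154 in WW (log2 change 1.66, limma adjusted p = 0.00435; after rescaling, adjusted p = 0.146). Its host had 11.8 and 11.5 TPM in DT4, against 16.1 and 22.0 TPM in WW, and did not pass (limma adjusted p = 0.0540). GRMZM2G054162_C1 (chromosome 4, 240891705 to 240893205), also among the 10 highest means but exonic, was not called in any level, with 403 and 490 in WW, 388 and 323 in DT2, 340 and 244 in DT3, and 597 and 568 in DT4.

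In DT3 the calls were GRMZM2G181151_C1 and GRMZM2G111014_C1. GRMZM2G181151_C1 (chromosome 6, 104276724 to 104279052, plus strand, 2328 bp) read 561 and 596 in DT3, against 222 and 98.0 in WW, which is 1.97 higher on the log2 scale (SE 0.425, limma adjusted p = 0.000405). It was 389 and 439 in DT4, where it was also called (1.49, limma adjusted p = 0.00650). Its host was lowest in WW and highest in DT4, with 117 and 108 TPM in WW, 231 and 210 in DT2, 361 and 309 in DT3, and 436 and 368 in DT4, and was called higher in each level, in DT2 at a limma adjusted p of 0.0261 that was 0.108 to 0.214 when any 1 of the 4 linear libraries was left out. The DT3 call of the circRNA held after rescaling (adjusted p = 0.0326) and was lost without WW replicate 2 (limma adjusted p = 0.0666). GRMZM2G111014_C1 (chromosome 3, 42897132 to 42902198, minus strand, 5066 bp) read 162 and 176 in DT3, against 69.5 and 28.0 in WW (log2 change 1.94, limma adjusted p = 0.0326), and lost its call after rescaling (adjusted p = 0.182).

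No long circRNA was called lower than WW as deposited, but 4 were in DT4 after rescaling. They were GRMZM2G101547_C1, GRMZM2G092475_C1, GRMZM2G117531_C1 and GRMZM2G033379_C1, with deposited log2 changes of -1.51, -1.31, -1.21 and -1.16 (limma adjusted p = 0.0928, 0.0731, 0.126 and 0.145). The hosts of the last 3 fell in DT4, by 2.26, 2.02 and 0.75 on the log2 scale, and the host of the first rose by 1.19. GRMZM2G092475_C1 (chromosome 6, 165489787 to 165492870) read 222 and 25.8 in DT4, against 194 and 182 in WW, so the call after rescaling rests on 1 DT4 library.

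Linear RNA of the hosts was tested on log2(TPM + 1) over the 22216 genes that reached 1 TPM in at least 2 linear libraries, and 379 of the 384 hosts entered. The other 5 stayed under that filter. In DT2, 3 hosts rose and 0 fell, beside 2.04% and 0.221% of all genes. In DT3, 61 rose and 17 fell (20.7% and 6.81% of all genes, 27.5% together). In DT4, 136 (35.9%) rose and 56 (14.8%) fell, beside 34.8% and 18.5% (53.3% together). The median gene had moved by 0.14 in DT2, 0.27 in DT3 and 0.27 in DT4; relative to it the median host stood at -0.03, -0.02 and 0.03. After rescaling the linear libraries, 24 hosts rose and 44 fell in DT3, and 85 rose and 89 fell in DT4, beside 2371 higher and 2548 lower of all 22216 genes in DT3 and 5618 higher and 5547 lower in DT4. Without WW replicate 1, WW replicate 2, DT3 replicate 1 or DT3 replicate 2, fewer were called in DT3, among hosts and among all genes. The median host change in DT3 was then 0.27, 0.19, 0.21 and 0.29, beside 0.30, 0.24, 0.22 and 0.32 over all genes.

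The largest host rises in DT4 were those of GRMZM2G122072 (40.7 and 80.6 TPM in DT4, against 3.90 and 2.06 TPM in WW; log2 change 3.91, limma adjusted p = 7.84e-05) and GRMZM2G000812 (249 and 448 TPM, against 18.3 and 38.3 TPM). Both carry circRNAs listed in DT4 alone, at 69.5 and 155 and at 27.8 and 38.7. The largest falls were those of GRMZM2G025659 (2.96 and 2.80 TPM in DT4, against 75.8 and 108 TPM in WW; log2 change -4.56, limma adjusted p = 1.73e-05) and GRMZM5G844562 (24.6 and 11.3 TPM, against 161 and 160.0 TPM). Their circRNAs were listed in DT2 and DT3, and in DT3 alone. GRMZM5G828581 had 13.9 and 8.68 TPM in DT2, against 0.84 and 0.48 TPM in WW, and stood at 1.46 and 2.61 TPM in DT4, where its intronic circRNA of 1008 bp was listed at 69.5 and 25.8.

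Listing and host change were set side by side. Among circRNAs listed in DT4 and not in WW, 153 hosts were tested, of which 41.8% rose and 9.80% fell. Where the circRNA was listed in WW and not in DT4, 46 hosts were tested, of which 30.4% rose and 23.9% fell. Hosts of circRNAs listed in both rose in 34.7% of 98 and fell in 17.3%, beside 34.8% and 18.5% of all genes. Where the circRNA was listed in neither, 82 hosts were tested, of which 29.3% rose and 15.9% fell. The difference between these classes was not tested.

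Changes of circRNA and host were compared directly by the interaction of assay and group in limma, unpaired. This fit takes 1 spread per circRNA and host over the libraries of both assays. Its prior degrees of freedom were 4.54, so that spread follows in part the replicates of the pair itself. The fit of the circRNAs alone had infinite prior degrees of freedom, and its SE rests on a spread pooled over circRNAs. The SE of a difference can therefore lie under that of its circRNA change alone, and its p can be too small. In DT2, 0 of 105 long circRNAs differed from their host (0% in the table), with 6 upward and 2 downward at an unadjusted limma p under 0.05, beside 38 and 22 of the 557 pairs in the table. In DT3, 2 of 104 differed upward and 0 downward (1.13% and 0.188% in the table, 1.32% together). Leaving out replicate number 1 or 2 of WW or DT3, in both assays at once, ended both calls. The log2 differences of these 2 pairs were then 1.84 to 2.19. In DT4, for 12 of 98 the circRNA changed upward relative to its host and for 2 downward, beside 13.5% and 2.4% of the 542 pairs in the table (15.9% together). Without any 1 of the WW or DT4 replicate numbers, left out of both assays at once, fewer differed in DT4, among long circRNAs and among all pairs in the table. After rescaling both assays 7 differed upward and 3 downward in DT4, beside 49 and 21 of the 542 pairs. With differences formed within equal replicate numbers, which no label says mark the same leaf sample, 0 long circRNAs differed in DT3 and 8 in DT4. The median gap over all pairs was 0.46 in DT4, a common shift between the 2 assays that rescaling reduced to 0.13.

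Among the 12, the host fell in 6, the circRNA rose in 6, and both held for 1. That 1 was GRMZM2G175265_C1 (chromosome 10, 78356845 to 78358452, minus strand, 1607 bp). It read 723 and 826 in DT4, against 361 and 294 in WW, while its host had 638 and 435 TPM in DT4, against 1240 and 1062 TPM in WW. The 2 assays moved apart by 2.37 on the log2 scale (SE 0.404, limma adjusted p = 0.00293).

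GRMZM2G026807_C1 (chromosome 1, 14624813 to 14626295, plus strand, 1482 bp) had the widest gap, 3.61 (SE 0.556, limma adjusted p = 0.00270). The host fell to 156 and 135 TPM in DT4, against 847 and 1159 TPM in WW, and the circRNA read 97.3 and 64.5 in DT4, against 27.8 and 70.0 in WW, where its groups overlap. AC190909.3_FG004_C1 (chromosome 5, 64363739 to 64366713, 2974 bp) behaved alike, with a gap of 3.03 (limma adjusted p = 0.00443). Its host had 5.22 and 4.72 TPM in DT4, against 23.5 and 22.9 TPM in WW, and its circRNA 306 and 181 in DT4, against 194 and 70.0 in WW, so the circRNA groups overlap.

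GRMZM2G100794_C1 and GRMZM2G089149_C1 had gaps of 2.57 and 3.26 (limma adjusted p = 0.0182 and 0.0354), each with a host that fell. The first host had 24.9 and 18.1 TPM in DT4, against 73.2 and 75.8 TPM in WW, and the circRNA of the second read 278 and 51.6 in DT4, so its replicates stood far apart. For GRMZM2G122897_C1 the host stood at 20.5 and 21.4 TPM in DT4, against 24.0 and 22.7 TPM in WW, and the circRNA rose, with a gap of 1.70 (limma adjusted p = 0.0160). GRMZM2G444692_C1, GRMZM5G893864_C1, GRMZM2G170452_C1 and GRMZM2G077079_C1 likewise rose as circRNAs over hosts that did not pass, with gaps of 1.49, 1.81, 2.31 and 1.32. Their hosts had log2 changes of 0.33, 0.55, -0.65 and 0.62 (limma adjusted p = 0.0860, 0.0533, 0.0540 and 0.0559), so not passing does not mean unchanged. With 1 replicate number left out of both assays, the gap of GRMZM5G893864_C1 was 1.44 to 2.19. The SEs of these gaps were 0.381, 0.414, 0.570 and 0.341, beside 0.376, 0.611, 0.456 and 0.728 for the circRNA changes alone. Both WW circRNA libraries of GRMZM2G077079_C1 were at the minimum of 2 steps.

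In DT3 the pairs that differed were GRMZM5G833140_C1 and GRMZM5G893864_C1. The circRNA of GRMZM5G833140_C1 (chromosome 5, 10286012 to 10287511) read 59.0 and 67.8 in DT3, against 41.7 and 42.0 in WW, and its host fell to 16.2 and 24.2 TPM in DT3, against 50.7 and 59.2 TPM in WW (gap 2.02, limma adjusted p = 0.0243). For GRMZM5G893864_C1 the gap was 2.04 (limma adjusted p = 0.0344), with the circRNA at 162 and 122 in DT3, against 41.7 and 56.0 in WW. The SEs of these gaps, 0.357 and 0.414, were under those of the circRNA changes alone, 0.716 and 0.611. Neither circRNA change was called alone (limma adjusted p = 0.678 and 0.114).

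The downward cases in DT4 were GRMZM2G101547_C1 and GRMZM2G082683_C1. GRMZM2G101547_C1 (chromosome 5, 178872482 to 178874663, 2181 bp) read 27.8 and 25.8 in DT4, the minimum of 2 steps, against 69.5 and 84.0 in WW. Its host had 12.4 and 8.45 TPM in DT4, against 4.25 and 3.60 TPM in WW, and the gap was -2.71 (SE 0.439, limma adjusted p = 0.00270). The circRNA of GRMZM2G082683_C1 read 69.5 and 64.5 in DT4, against 125 and 42.0 in WW, while its host rose by 2.24 on the log2 scale (gap -2.36, limma adjusted p = 0.0247).

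**Figure D4:**
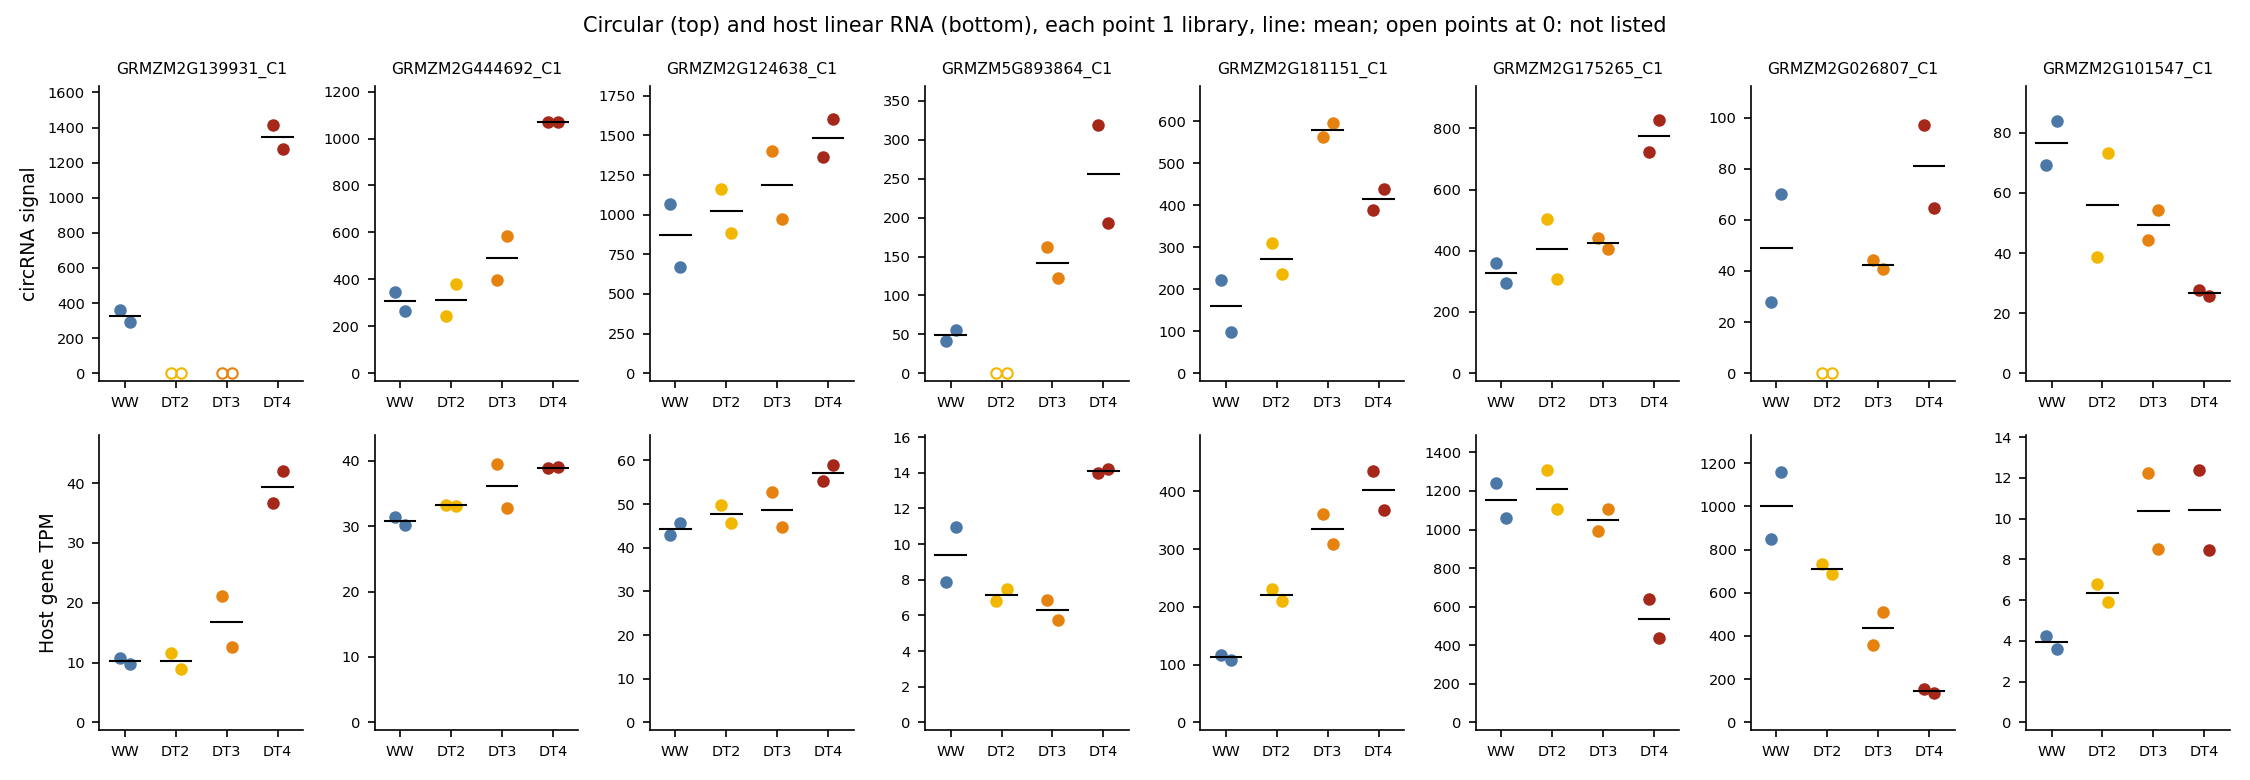
CircRNA signal (top) and host TPM (bottom) of 8 long circRNAs in each library of WW, DT2, DT3 and DT4; points are libraries, lines the mean of 2, and open points at 0 mark groups where the circRNA was not listed. GRMZM2G139931_C1 and its host both stand highest in DT4, while the host of GRMZM2G026807_C1 drops to 156 and 135 TPM in DT4 with its circRNA at 97.3 and 64.5.

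In the 98 pairs, both were higher in DT4 for 57, both lower for 11, only the circRNA higher for 24 and only the host higher for 6. Spearman's rho between the changes was 0.12 in DT2 (n = 105), 0.09 in DT3 (n = 104) and 0.24 in DT4. Each is a description over circRNAs that share 4 circRNA and 4 linear libraries. Of the 15 circRNAs called higher in DT4, the host was called higher in 6, lower in 1 and not called in 8.

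**Figure D5:**
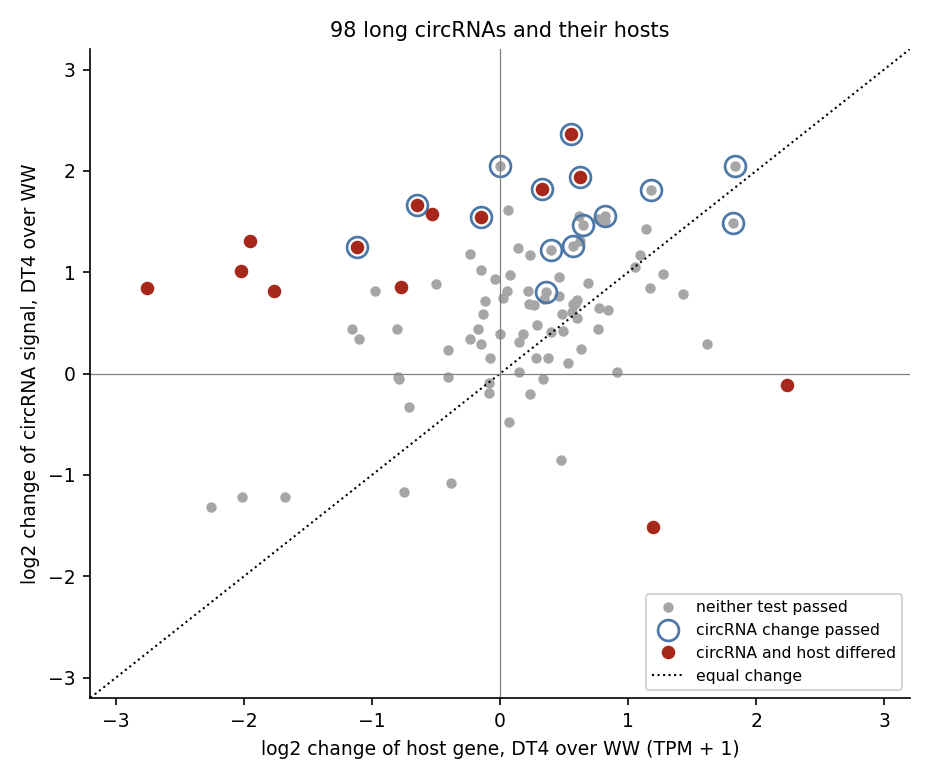
Log2 change of the circRNA signal (vertical) against that of its host gene (horizontal), DT4 over WW, for 98 long circRNAs (points); blue rings passed the circRNA test, red points differed between circRNA and host, and the dotted line marks equal change. Of the 14 red points, 12 lie above the line and 2 below it.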

How the data were processed

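CircRNA and linear RNA of maize leaves were analysed in 16 of the 36 samples of the series, and the members and lists were chosen with earlier results of these data known. The deposited linear values are TPM of single transcripts, by the header of the file, and 63235 transcripts were summed to 39469 genes. The deposited circRNA values are a signal that the authors scaled within each library; its unit and the read depth are not stated in the sources used here. Values were whole multiples of a library step within 0.02 for 100% of the nonzero values. Tools named in the submitters' processing notes, with no version or role, are BWA, RSEM and edgeR, and the maize build is B73 RefGen_v3. Reads were 150 bp, per the labels' protocols.

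Columns were assigned to groups by name, and column numbers were not matched to the letters of the sample titles. CircRNAs listed in both groups were tested as log2 signal with 0 as missing, and hosts as log2(TPM + 1), in limma 3.58.1 under R 4.3.3 (moderated, mean-variance trend, two-sided, Benjamini-Hochberg over all features tested). For circRNAs the prior degrees of freedom were infinite, so each SE rests on a spread pooled over circRNAs, with a median of 0.587 for DT4 against WW. With 2 libraries per group, means carry the SD of 2 values, and intervals were not formed for a signal of unstated scale.

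The named circRNAs are those with the 5 largest called rises and falls, the 10 highest means, the 5 longest and 3 on each side of the length limit, the 3 highest listed in 1 group or in all but 1, the 5 smallest p for circRNA against host, the 5 extremes of the ratio to host TPM, and hosts with the largest called changes; the text gives part of these. The 4 lower after rescaling, the DT4 calls beyond the first 5, the intronic members, the other calls of circRNA against host, the members with ends shared with intergenic circRNAs and the high members with a group at 0 were named after their values were seen. Lists of host functions and leaf markers were planned and not used here, since the reference tables do not cover maize. Reading used data.table (version 1.17.8) and, under Python 3.11.15, pandas 2.3.3, and plots used matplotlib 3.10.9. Replicate numbers, rescaling of libraries, filters, length limits, pseudocounts and left-out libraries were varied.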

Additional observations from a re-analysis of the deposited data

How the results depend on the processing

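Of the 15 DT4 calls of long circRNAs, 3 were also calls after rescaling, while a mean of at least 5 steps gave 0 calls in DT2, 3 in DT3 and 16 in DT4. With zeros kept as log2(value + 25.8), calls were 140 in DT2, 147 in DT3 and 217 in DT4, since listing then counts as change, and the median change was 0.00 in DT2 and 0.00 in DT3. After trimmed-mean rescaling, calls were 1 in DT3 and 7 in DT4, and the medians were 0.0811 in DT2, -0.0398 in DT3 and 0.12 in DT4. Centring each library on its median gave 1 call in DT3, 7 in DT4 and medians of 0.0814, -0.0513 and 0.0940 in DT2, DT3 and DT4. The DT3 calls were 0 with the 4 libraries compared alone and 0 without the mean-variance trend, which left 4 in DT4. A limit of 2000 bp left 2 DT4 calls, and a limit of 500 bp gave 1 in DT2, 9 in DT3 and 34 in DT4. Leaving out 1 library gave 0 to 1 calls in DT2, 1 to 2 in DT3 and 3 to 15 in DT4, with medians of 0.20 to 0.40, 0.40 to 0.52 and 0.53 to 0.80. Host calls ranged from 0 to 1 in DT2, 8 to 64 in DT3 and 129 to 177 in DT4 under the same; they were 1 in DT2 with every gene above 0, and 34 in DT3 and 73 in DT4 above 2000 bp. CircRNAs that differ from their host numbered 0 in DT3 in each left-out fit and 6 to 11 in DT4, 4 in DT3 with a host pseudocount of 0.1 TPM, and 0 in DT3 with a mean of at least 5 steps. Above 2000 bp the shares of signal were 3.19% in WW, 4.29% in DT2, 4.01% in DT3 and 3.37% in DT4, and the listed circRNAs 52, 85, 79 and 108; among circRNAs listed in all 4 groups the shares were 6.82%, 7.204%, 7.22% and 8.34%. With 5 steps in both libraries, 65, 90, 93 and 122 were listed. Of the single circRNAs and hosts named by rule, 239 values under alternatives kept their direction and their side of the threshold, called or not (a length limit repeats the same fit), 47 lost the call, 3 gained it and 0 turned. In each left-out fit the DT4 calls over all circRNAs, over all genes and over all pairs were also fewer than in the main fit. The cause of these moves was not tested beyond what each setting does by construction.

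Deviations of equally numbered libraries correlated between -0.10 and 0.06 over circRNAs and between -0.11 and 0.11 over genes, and those of a circRNA with its host correlated between 0.04 and 0.16 over equal numbers. Not every value is over 0.1 and no label ties the numbers, so the numbers were not taken to pair samples. A replicate block gave 1 circRNA call in DT3, and 0 in DT3 and 8 in DT4 for circRNA against host. The planned edgeR and DESeq2 fits were not run, since the unit of the deposited signal is not stated.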
